A study of Caenorhabditis elegans with 48 samples.

Results

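Larvae lacking LIN-28 were compared with wild-type larvae over the 4 hours from 8 to 11 h of larval culture, across every miRNA strand that was measured. The comparison used 8 of the 48 small RNA libraries of the series, 4 of each genotype, chosen by genotype and sampling hour. Of 437 mature strands listed, 246 averaged 10 counts or more over the 48 libraries and entered the tests. Each library came from whole Caenorhabditis elegans larvae, synchronized at the first larval stage and grown on bacteria in liquid at 25°C, with 1 sample taken per hour.

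The WT strain (HW1993) carried the transgene xeSi312, a single insertion on chromosome IV in which the broadly active eft-3 promoter drives a luciferase-GFP fusion, together with a functional copy of unc-119. The lin-28(0) strain (HW2706) carried the same transgene and the allele lin-28(xe192). The reporter was therefore shared by both groups. Neither group received any treatment. The labels name no separate cultures within a genotype, so the hours of its time course stand in for replicates. Every p-value below rests on the spread between hourly libraries, in some fits after the hour is taken out. None measures the spread between cultures.

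The RNA-binding protein LIN-28 holds back the maturation of let-7, a miRNA whose late accumulation times the passage from larval to adult cell fates in worms. A miRNA is cut from a hairpin precursor as a duplex, from which the guide strand is loaded into an Argonaute protein while the passenger strand, written let-7* for let-7, is usually discarded. Larval transcription of let-7 and of lin-4, the other classical timing miRNA of the worm, runs in pulses that recur with each larval stage, so a level read at a given hour also depends on how far the animals have developed. lin-28 mRNA is not a small RNA, and the labels of the mutant could not be checked against the targeted gene.

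The libraries held 3444437 (WT at 11 h) to 9714387 (WT at 10 h) counts, and the 10 most abundant strands took 69.2% to 73.2% of each. Levels are given as CPM, a strand's counts divided by the library's miRNA total and scaled to 1e6, and 3 counts corresponded to at most 0.871 CPM. The 7 strands fixed as tissue markers (miR-1-3p for muscle, miR-124-3p, lsy-6-3p and miR-791-3p for neurons, miR-60-3p for intestine, miR-228-5p for glia and seam, miR-235-3p for hypodermis and seam) were present in all 8 libraries. Their summed level was 80343 to 92070 CPM in WT and 86179 to 90355 CPM in lin-28(0), and none of the 7 passed the test. Most of that sum was miR-1-3p and miR-228-5p, so it says little about the scarcer markers. The log2 differences of the 7, lin-28(0) minus WT, ran from -0.64 (miR-60-3p) to 1.07 (miR-791-3p), 3 positive and 4 negative. At an unadjusted p under 0.05 in edgeR there were 2, miR-791-3p (the less abundant strand of mir-791) and miR-228-5p, both higher in lin-28(0). As these are whole animals, fewer cells of a type and less RNA per cell cannot be told apart. Of the 246 strands, 8 stood far from the other hours of their genotype in WT at 8 h, 8 in WT at 11 h and 9 in lin-28(0) at 11 h, against 3 or fewer in each other library. WT at 11 h was also the shallowest, and held miR-60-3p at 223 CPM against 52.9 to 88.7 CPM at the other WT hours. Each of the 8 libraries was left out in turn, and values that moved are given beside the result.

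Most of the miRNA population was close between the genotypes at these hours. Of the 246 strands, 4 (1.63%) passed an adjusted p of 0.01 in edgeR's quasi-likelihood test, with Benjamini-Hochberg adjustment over all 246. Both strands of let-7 were higher in lin-28(0) (0.813% of strands), and miR-229-3p and miR-90-3p were lower (0.813%). The median log2 difference over all strands was -0.02, and 210 strands (85.4%) differed by less than 0.5 on the log2 scale. At an unadjusted p under 0.05 there were 32 strands, 13 higher and 19 lower. With the size factors of DESeq2 in place of TMM scaling, 2 strands were higher and 1 was lower, since miR-90-3p missed the threshold.

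**Figure D1:**
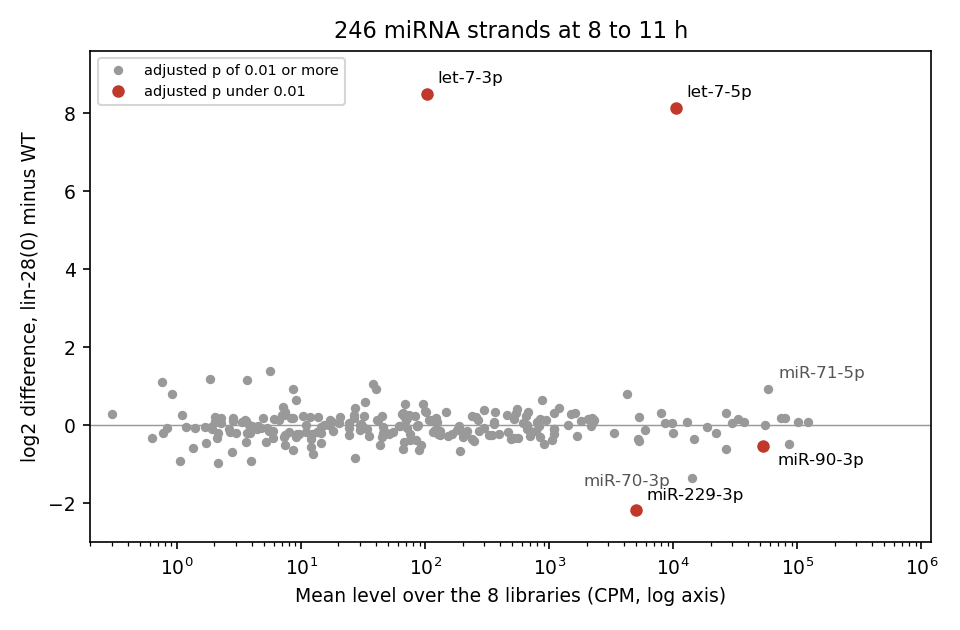
The mean level of each of the 246 strands over the 8 libraries (CPM, log axis) is plotted against its fitted log2 difference, lin-28(0) minus WT. Both let-7 strands sit above 8 on the log2 scale, miR-229-3p sits at -2.18, and the abundant miR-90-3p at -0.54 lies near the bulk of the strands.

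The let-7 guide, let-7-5p, had the largest difference among strands above 10 CPM in every library. It stood at 18.2, 63.6, 121 and 111 CPM in WT at 8, 9, 10 and 11 h. In lin-28(0) it stood at 3987, 13761, 28534 and 37884 CPM at the same hours. The lowest lin-28(0) library thus held far more guide than the highest WT library, and the groups were wide apart. The ratio at matched hours was 219-fold at 8 h, 216-fold at 9 h, 236-fold at 10 h and 341-fold at 11 h. The fitted difference was 8.14 on the log2 scale (SE 0.98, adjusted p = 0.00186 in edgeR). Without the WT library of 9 h or that of 11 h the adjusted p in edgeR rose to 0.0118 and 0.0109, with differences of 8.04 and 8.35. The guide also climbed steeply inside each group. The fitted slope was 0.84 log2 units per hour in WT and 1.10 in lin-28(0), and the slopes did not differ by the test of the interaction (difference 0.26, adjusted p = 0.70 in edgeR).

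The let-7 passenger, let-7-3p, was barely sampled in WT. It had 1, 6, 10 and 0 counts at 8, 9, 10 and 11 h, or 0.158, 0.685, 1.03 and 0 CPM. In lin-28(0) it had 595, 2173, 3059 and 1335 counts, or 77.2, 231, 318 and 198 CPM. The lin-28(0) level was thus highest at 10 h and already lower at 11 h, whereas the guide was still higher at 11 h than at 10 h. The window was set around the first peak of let-7*, so a peak inside it follows from the choice of hours. At 8 h the ratio of lin-28(0) to WT was 488, with a 95% exact interval of 87.2 to 19299 since it rests on a single WT count. The ratio was 337 at 9 h (154 to 918) and 308 at 10 h (168 to 644). At 11 h let-7* was at least 227-fold higher, measured against 3 counts in that WT library, and the exact 95% lower bound of the kind given for the other hours was 184. These intervals cover counting error only, because PCR copies of a molecule were not told apart. The fitted difference was 8.50 on the log2 scale (SE 0.70, adjusted p = 1.4e-04 in edgeR).

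**Figure D2:**
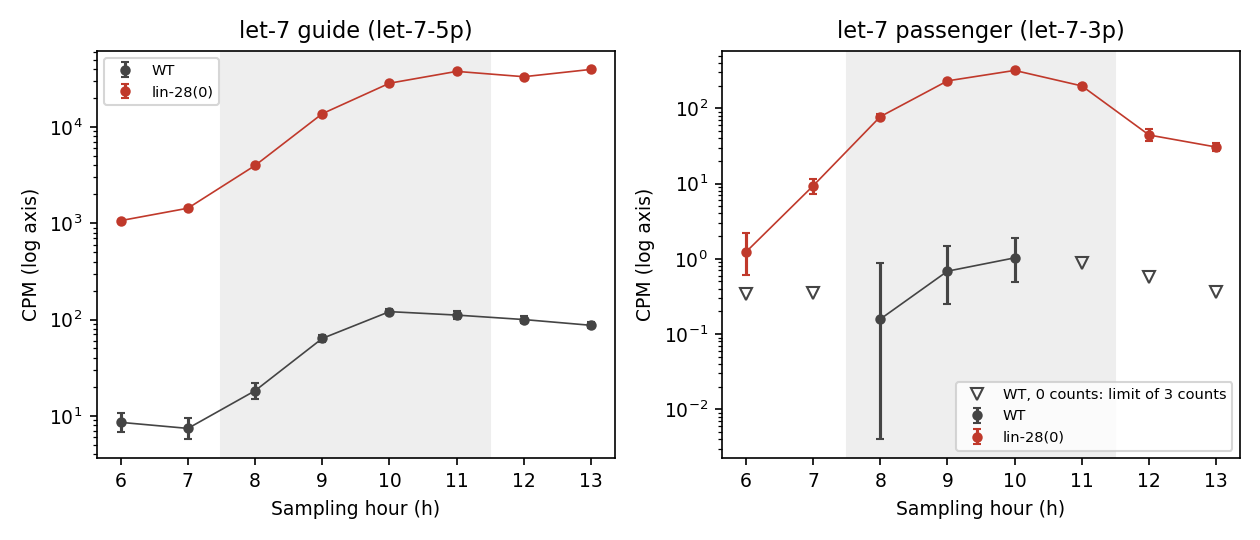
Levels of let-7-5p (left) and let-7-3p (right) are plotted in CPM on log axes for the hourly libraries of 6 to 13 h in WT (grey) and lin-28(0) (red), with 8 to 11 h shaded. Bars are 95% Poisson counting intervals and open triangles mark WT libraries with 0 counts at the level of 3 counts. Every lin-28(0) point of 8 to 11 h lies above every WT point, and let-7-3p in lin-28(0) peaks at 10 h with 318 CPM.

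By an exact two-sided permutation test of log2(CPM + 1) over 4 against 4 libraries, p was 0.0286 for the guide and for the passenger, the smallest value this design allows. The mean difference on that scale was 7.93 for the guide and 7.03 for the passenger, higher in lin-28(0) at 4 of 4 hours for both. When the differences were instead taken within each hour and their signs flipped, p was 0.125 for both, which is again the smallest that 4 pairs can give.

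The passenger's share of all let-7 counts went down through the window in lin-28(0). It was 1.90% at 8 h (95% Clopper-Pearson interval 1.75 to 2.06), 1.65% at 9 h (1.58 to 1.72), 1.10% at 10 h (1.06 to 1.14) and 0.519% at 11 h (0.491 to 0.547). No 2 of these intervals overlapped, although they again cover counting error only. In WT the share was 0.862% at 8 h (0.0218 to 4.71), 1.07% at 9 h (0.392 to 2.31) and 0.845% at 10 h (0.406 to 1.55). At 11 h it was 0 of 383 counts, which allows a share of up to 0.783% by the limit of 3 counts and 0.959% by the Clopper-Pearson interval. At each hour the lin-28(0) share lay within what the WT counts allow, so a difference in strand share between the genotypes was not detectable at this depth.

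Outside let-7, no member of its family or of the lin-4 family passed. The 6 other tested 5p strands of the let-7 family had a median difference of -0.04 on the log2 scale and the 4 other tested 3p strands a median of 0.10, beside -0.02 over all strands. With let-7 itself the medians were 0.01 and 0.30. miR-794-3p was below the count minimum. miR-48-5p, a let-7 relative that acts with miR-84 and miR-241 earlier than let-7 itself, stood at 144, 536, 1063 and 1348 CPM in WT and 141, 372, 766 and 1183 CPM in lin-28(0). Its levels climbed by similar steps in both genotypes, and the groups overlapped throughout (difference -0.26, SE 0.75, adjusted p = 0.90 in edgeR). miR-84-5p differed by 0.01 (SE 0.17), miR-241-5p by -0.14 (SE 0.58), miR-793 by -0.10 (SE 0.14), miR-794-5p by 0.14 (SE 0.11) and miR-795-5p by 0.07 (SE 0.17). Among the 3p strands, miR-48-3p differed by 0.92 (SE 0.62), miR-84-3p by 0.30 (SE 0.24), miR-241-3p by -0.24 (SE 0.51) and miR-795-3p by -0.09 (SE 0.24). miR-48-3p was low, at 2.9 to 8.85 CPM in WT and 2.08 to 18.2 CPM in lin-28(0), with overlapping groups.

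lin-4-5p, the lin-4 guide, entered this window at a low level and climbed within it in both strains. In WT it stood at 47.01, 266, 418 and 364 CPM. In lin-28(0) it stood at 19.3, 117, 276 and 408 CPM. It was lower in lin-28(0) at 8, 9 and 10 h and higher at 11 h, and the groups overlapped (difference -0.34, SE 0.86, adjusted p = 0.90 in edgeR). lin-4-3p stood at 9.97, 31.3, 12.6 and 4.06 CPM in WT and at 1.82, 10.2, 14.4 and 12.6 CPM in lin-28(0), so its highest library was that of 9 h in WT and that of 10 h in lin-28(0). miR-237-5p, which shares its seed with lin-4, was level at 735 to 932 CPM in WT and 736 to 877 CPM in lin-28(0) (difference -0.03, SE 0.12). miR-237-3p differed by -0.20 (SE 0.45).

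**Figure D3:**
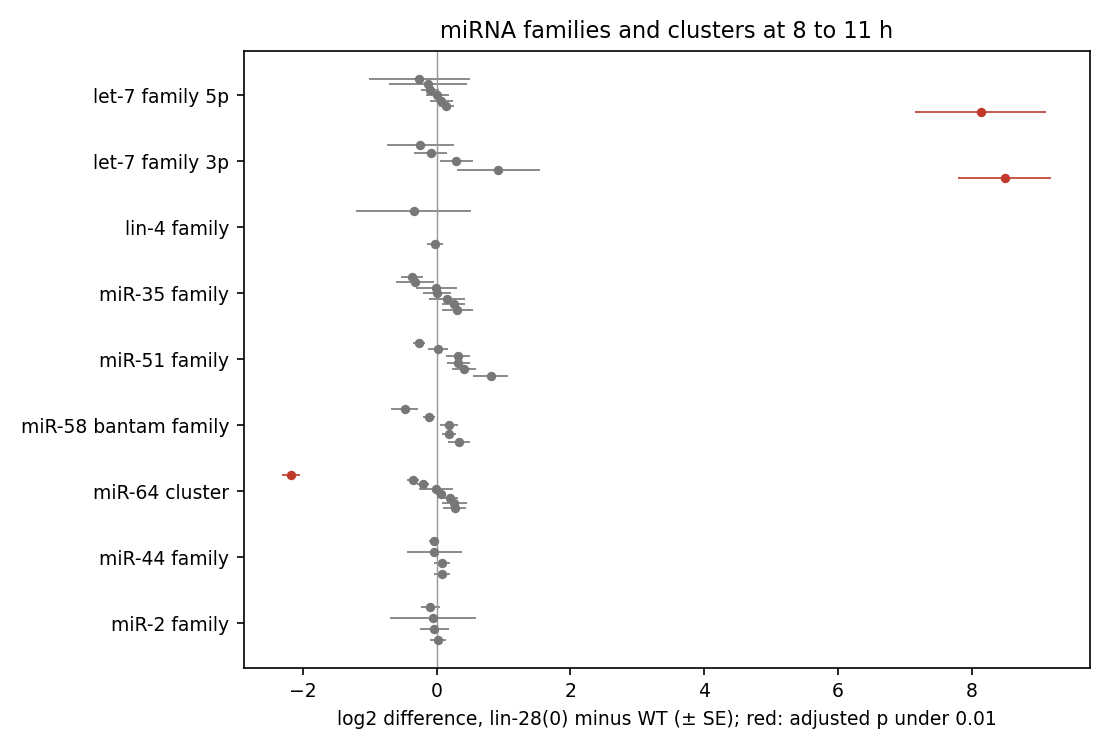
The fitted log2 difference, lin-28(0) minus WT, with its SE is plotted for every tested strand of 9 families or clusters, with strands past an adjusted p of 0.01 in red. Only let-7-5p, let-7-3p and miR-229-3p are red, and the other strands of the same families lie between -0.48 and 0.92.

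miR-229-3p was the lower strand with the largest difference. Its level was 9234, 8010, 8177 and 7697 CPM in WT and 2130, 1847, 1631 and 1578 CPM in lin-28(0). Every lin-28(0) library lay far below every WT library, and the ratio of WT to lin-28(0) at matched hours was 4.34, 4.34, 5.01 and 4.88. The fitted difference was -2.18 (SE 0.13, adjusted p = 2.2e-05 in edgeR), it passed under all 22 other settings tried for single strands, and it ranged from -2.41 to -1.95 over them. Over the window the strand was nearly level, with slopes of -0.10 log2 units per hour in WT and -0.12 in lin-28(0).

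The other strand of the same precursor did not follow. miR-229-5p stood at 4056, 5286, 5311 and 5372 CPM in WT and 4916, 5614, 6187 and 5762 CPM in lin-28(0), higher in lin-28(0) at 4 of 4 hours, but with overlapping groups (difference 0.20, SE 0.12, adjusted p = 0.51 in edgeR). The 3p strand was therefore the more abundant of the pair in all 4 WT libraries and the less abundant in all 4 lin-28(0) libraries. The log2 ratio of 3p to 5p was 0.73 ± 0.31 in WT and -1.65 ± 0.33 in lin-28(0) (SD, n = 4 hours each).

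For the 84 precursors whose 2 strands were both tested, passenger over guide was compared as a log2 ratio, where the guide is the strand with the higher mean over the 48 libraries and 1 CPM was added to each level. With limma, 1 precursor (1.19%) passed, mir-229, with a difference of -2.38 (SE 0.25, adjusted p = 2.3e-04). Here miR-229-3p counts as the passenger although at these hours it outnumbered the 5p strand in WT. There were 10 precursors at an unadjusted p under 0.05. The ratio of let-7 differed by -0.90 (SE 0.59, adjusted p = 0.61 in limma), a value that rests on the added 1 CPM in WT, and that of mir-90 by 0.47 (SE 0.21, adjusted p = 0.39). By the exact permutation test over 4 against 4 libraries, 6 precursors (mir-229, mir-52, mir-75, mir-80, mir-1 and mir-90) shared the smallest p possible (0.0286), and no ratio could pass after adjustment over 84 (lowest adjusted value 0.40).

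mir-229 is listed in RefSeq's annotation of WBcel235 next to mir-64, mir-65 and mir-66, all within the span of the gene gcn-1. Of the 8 strands of this cluster, 1 passed, and their median difference was 0.03, beside -0.02 over all strands. Counts on these loci were mapped to another build, so no coordinates are given. miR-65-5p stood at 15493, 18664, 17539 and 15205 CPM in WT and at 13092, 14089, 12514 and 11627 CPM in lin-28(0), lower in every lin-28(0) library than in any WT library (difference -0.35, SE 0.09, adjusted p = 0.089 in edgeR). miR-64-5p, at 21136 to 26253 CPM in WT and 19034 to 21693 CPM in lin-28(0), overlapped slightly (difference -0.21, SE 0.08). miR-66-5p, the most abundant strand of the cluster, differed by 0.06 (SE 0.08). The 3p strands of the 3 neighbours were low, at 2.37 to 31.9 CPM, and differed by -0.01 to 0.27.

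**Figure D4:**
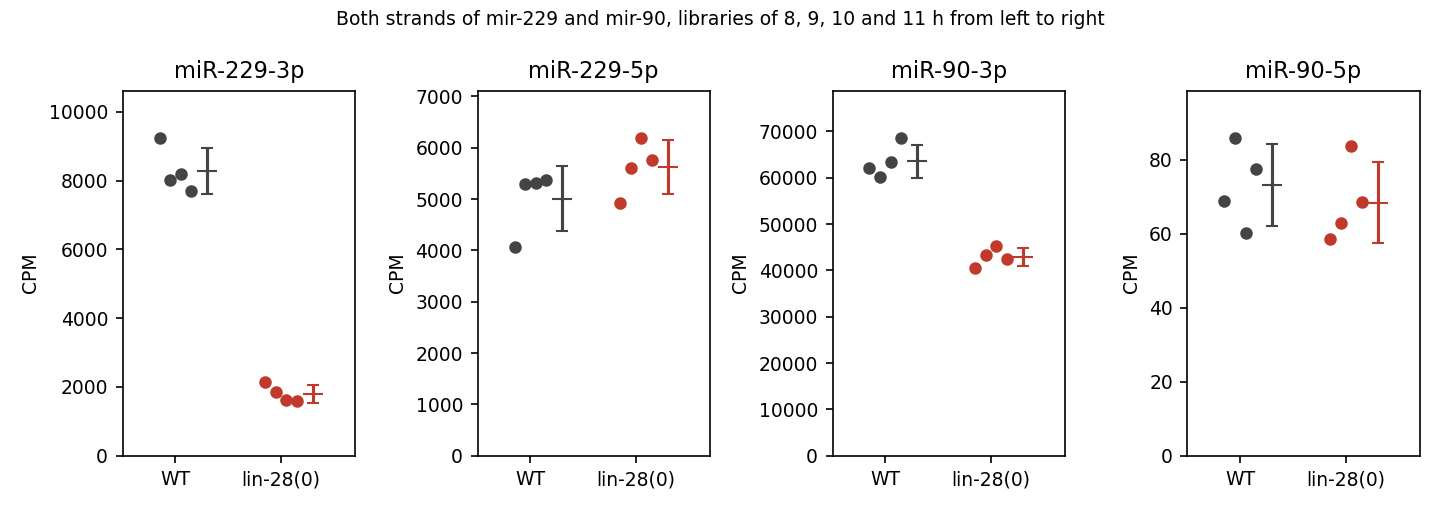
Levels in CPM of both strands of mir-229 and mir-90 are plotted for the 4 WT (grey) and 4 lin-28(0) (red) libraries, in order of hour from left to right, with the mean and SD beside them and axes from 0. The groups are apart for miR-229-3p and miR-90-3p and overlap for miR-229-5p and miR-90-5p.

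miR-90-3p, among the 10 most abundant strands, had the smallest difference of the 4 that passed. It stood at 62059, 60119, 63350 and 68538 CPM in WT and 40436, 43316, 45208 and 42423 CPM in lin-28(0). All 4 WT libraries lay above all 4 lin-28(0) libraries. The fitted difference was -0.54 (SE 0.08, adjusted p = 0.00564 in edgeR). With the sampling hour as a block it was again -0.54 (SE 0.07), with an adjusted p of 0.0179 in edgeR. Leaving out any 1 of the 8 libraries also left it short of the threshold, with adjusted p from 0.0118 to 0.0593 in edgeR and differences from -0.57 to -0.50. Its other strand, miR-90-5p, stood at 60.3 to 85.9 CPM in WT and 58.5 to 83.8 CPM in lin-28(0), and differed by -0.06 (SE 0.17).

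The 3 strands that came next missed the threshold. miR-8196a-3p stood at 26.7, 38.5, 32.9 and 42.1 CPM in WT and 20.6, 20.8, 21.1 and 14.2 CPM in lin-28(0), without overlap (difference -0.83, SE 0.18, adjusted p = 0.063 in edgeR). miR-5592-3p, near the detection limit, stood at 0.871 to 1.60 CPM in WT and 2.08 to 3.29 CPM in lin-28(0) (difference 1.19, SE 0.26, adjusted p = 0.066). miR-4810a stood at 10.2 to 10.8 CPM in WT and 5.40 to 7.25 CPM in lin-28(0) (difference -0.63, SE 0.14, adjusted p = 0.066). Over all strands, the groups did not overlap for 22 (8.94%), 10 higher (4.07%) and 12 lower (4.88%) in lin-28(0), and 18 of these 22 did not pass the test.

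The next strands, all among these 18, were picked once their values were known. miR-355-5p stood at 17.9, 34.03, 23.3 and 38.3 CPM in WT and 61, 49.02, 59.5 and 40.6 CPM in lin-28(0), where the highest WT and the lowest lin-28(0) library nearly met (difference 0.93, SE 0.25, adjusted p = 0.11 in edgeR). miR-791-3p, a strand of sensory neurons, stood at 31.7, 24.4, 29.96 and 11.9 CPM in WT and 62.4, 52.8, 34.05 and 54.2 CPM in lin-28(0) (difference 1.07, SE 0.31, adjusted p = 0.15). Without the low WT library of 11 h its difference was 0.85. miR-791-3p is the less abundant strand of its precursor, so its rise need not hold for the 5p strand. The mean log2 ratio of 3p to 5p was -1.51 in WT and -0.54 in lin-28(0) (difference 0.97, SE 0.32, adjusted p = 0.37 in limma). miR-80-5p differed by -0.66 (SE 0.16), miR-2212-5p by 0.64 (SE 0.16) and miR-245-3p by -0.34 (SE 0.09), with adjusted p from 0.089 to 0.11 in edgeR.

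Of the 10 most abundant strands, which made up most of each library, 7 differed by 0.19 or less on the log2 scale, and the others were miR-71-5p, miR-58a-3p and miR-90-3p. miR-72-5p led at 112382 to 126385 CPM in WT and 108846 to 133574 CPM in lin-28(0) (difference 0.08, SE 0.07). miR-57-5p differed by 0.10 (SE 0.13), miR-81-3p by 0.18 (SE 0.13), miR-82-3p by 0.19 (SE 0.10) and miR-73-3p by 0.15 (SE 0.14). Muscle miR-1-3p stood at 49261 to 64716 CPM in WT and 50720 to 56398 CPM in lin-28(0) (difference 0.00, SE 0.09). miR-44-3p differed by 0.08 (SE 0.11), and its level cannot be cleanly parted from that of miR-45-3p, with which it has reads in common. miR-58a-3p, of the bantam-like family, gave lower lin-28(0) levels in all 4 hours, at 68165, 107560, 94250 and 137187 CPM in WT and 57522, 67775, 81176 and 78139 CPM in lin-28(0), with overlapping groups (difference -0.48, SE 0.20, adjusted p = 0.37 in edgeR).

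No strand of the remaining families passed. Of the miR-35 family, which is abundant in embryos and is cleared at the start of larval life, 7 of 8 guides were tested (miR-41-3p was below the minimum), with a median difference of 0.00. Their summed level was 2680 to 4996 CPM in WT and 2881 to 4648 CPM in lin-28(0). miR-35-3p differed by 0.31 (SE 0.23) and miR-39-3p by -0.37 (SE 0.16). The 4 guides of the miR-44 family had a median of 0.02 and the 4 of the miR-2 family a median of -0.05, and miR-2-3p, at 574 to 765 CPM in WT and 624 to 713 CPM in lin-28(0), was close to equal. The 5 tested members of the miR-58 family had a median of 0.18, and miR-58b-3p was below the minimum.

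The 6 members of the miR-51 family, an ancient group with relatives in many animals, had a median difference of 0.32, with 5 positive values and no call. The WT library of 11 h was the lowest WT library for 5 of them. miR-54-3p stood at 3622, 3448, 3888 and 1554 CPM in WT and 5178, 5093, 5554 and 5557 CPM in lin-28(0), above WT in every library (difference 0.80, SE 0.26, adjusted p = 0.20 in edgeR). Without WT at 11 h its difference was 0.58 (SE 0.10, adjusted p = 0.027 in edgeR). The loci of mir-54 and mir-55 are both listed within the span of the gene F09A5.3, with F09A5.15 between them. miR-55-3p went the other way, at 1775 to 1960 CPM in WT and 1416 to 1547 CPM in lin-28(0), again without overlap (difference -0.26, SE 0.09, adjusted p = 0.24). miR-52-5p, the most abundant member, differed by 0.32 (SE 0.17).

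miR-71-5p, a guide that promotes long life and survival of starvation in worms, stood at 101409, 35864, 8019 and 11625 CPM in WT and 133404, 93716, 53336 and 23953 CPM in lin-28(0). Each hour gave a higher lin-28(0) level, by 1.32, 2.61, 6.65 and 2.06-fold. Its lowest library was that of 10 h in WT and that of 12 h (22651 CPM) in lin-28(0). The levels within each genotype spanned more than the gap between them, and the groups overlapped (difference 0.93, SE 0.83, adjusted p = 0.65 in edgeR). With the sampling hour as a block the difference was 1.41 (SE 0.39, adjusted p = 0.16 in edgeR), without the WT library of 8 h it was 2.09 (SE 0.70), and with lin-28(0) taken 2 h later than WT it was -0.28 (SE 0.75).

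miR-70-3p went the other way. It stood at 10290, 16551, 15300 and 39595 CPM in WT and 5605, 6562, 7843 and 10988 CPM in lin-28(0), lower in lin-28(0) at 4 of 4 hours (difference -1.35, SE 0.41, adjusted p = 0.16 in edgeR). With the hour as a linear covariate it passed, at -1.25 (SE 0.20, adjusted p = 0.0096 in edgeR). Without the WT library of 11 h it was -0.81 (SE 0.26). At 12 h the levels were 37337 CPM (WT) and 32652 CPM (lin-28(0)), so the gap was much smaller by then. At 13 h lin-28(0) was the higher, at 27504 CPM against 15668 CPM in WT.

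miR-235-3p, a guide that keeps starved larvae quiescent, was lowest in the middle of the window. It stood at 3185, 1452, 3170 and 16699 CPM in WT and 5900, 3506, 2278 and 6367 CPM in lin-28(0), with its lowest library at 9 h in WT and at 10 h in lin-28(0). The 4 guides that the study chose on other samples as sensitive to EBAX-1, miR-235-3p and miR-71-5p among them, had a median difference of -0.10. The 10 strands that earlier results of these data named as rhythmic had a median of 0.23, with 7 positive values and no call. miR-244-5p, the most abundant of these, stood at 11811 to 47669 CPM in WT and at 11744 to 28895 CPM in lin-28(0), with 11 h the highest of these 4 hours in both (difference -0.61, SE 0.45). miR-246-3p, at 1.14 to 4.06 CPM in WT and 3.63 to 7.66 CPM in lin-28(0), differed by 1.16 (SE 0.41, adjusted p = 0.26).

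**Figure D5:**
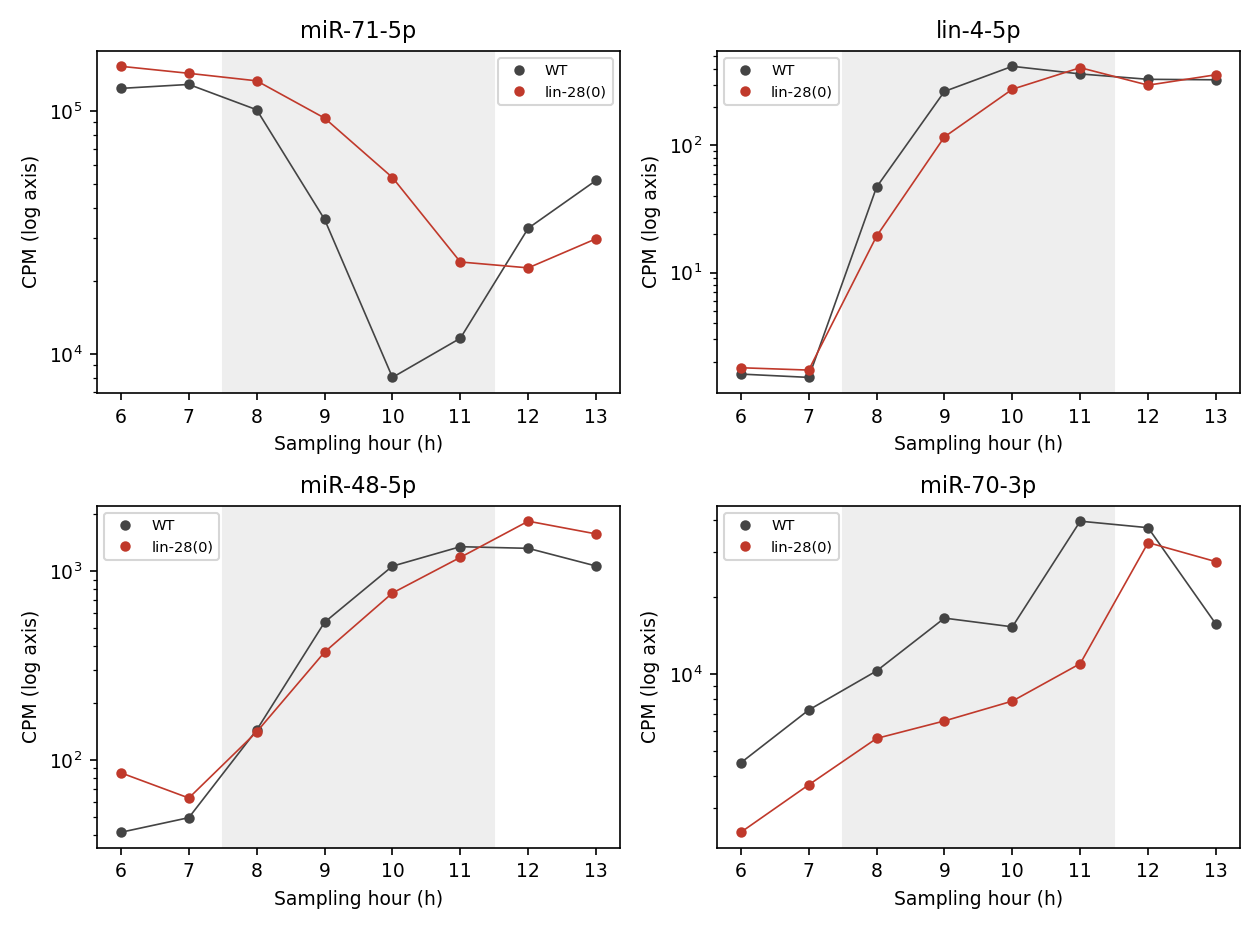
Levels of miR-71-5p, lin-4-5p, miR-48-5p and miR-70-3p are plotted in CPM on log axes for the hourly libraries of 6 to 13 h in WT (grey) and lin-28(0) (red), with 8 to 11 h shaded. miR-71-5p reaches its lowest level at 10 h in WT and at 12 h in lin-28(0), and lin-4-5p reaches its highest at 10 h in WT and at 11 h in lin-28(0).

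These steep courses raised the question of how equal hours compare. Each strand's log2(CPM + 1) was centred on its own genotype's mean over 24 hours, and each lin-28(0) library was correlated with every WT library across the 246 strands. The closest WT library was that of 7 h for lin-28(0) at 8 h (r = 0.79), 8 h for 9 h (r = 0.75), 9 h for 10 h (r = 0.72) and 10 h for 11 h (r = 0.65). The same hour gave r of 0.76, 0.67, 0.61 and 0.32. These are descriptions across strands, which share libraries and are not replicates. The median absolute log2 difference over all 246 strands was 0.20 at equal hours, 0.16 when lin-28(0) was taken 1 h later than WT, 0.19 at 2 h later, 0.22 at 1 h earlier and 0.28 at 2 h earlier.

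The 4 strands that passed were looked at under the same shifts. With lin-28(0) taken 1 h later, both let-7 strands and miR-229-3p passed, at 8.60, 8.54 and -2.29, and miR-90-3p differed by -0.43 (SE 0.11, adjusted p = 0.25 in edgeR). That shift moved the median of all strands to 0.07. With lin-28(0) taken 1 h earlier, miR-229-3p and miR-90-3p passed, and both let-7 strands had an adjusted p of 0.0104 in edgeR with differences of 7.29 and 8.12. With lin-28(0) taken 2 h earlier, miR-229-3p alone passed (-1.95), let-7-5p differed by 6.11 (adjusted p = 0.021 in edgeR), let-7-3p by 7.19 and miR-90-3p by -0.44 (adjusted p = 0.049 for both). At 2 h later, let-7-5p (8.86), let-7-3p (8.04) and miR-229-3p (-2.41) passed, and miR-90-3p differed by -0.51 (adjusted p = 0.099). miR-71-5p differed by 0.38 and miR-70-3p by -0.43 at 1 h later, and by -0.28 (SE 0.75) and 0.01 (SE 0.57) at 2 h later. lin-4-5p differed by 0.11 at 1 h later and 0.36 at 2 h later, and miR-48-5p by 0.51 and 0.86, so both changed sign from their values at equal hours. How far developmental timing takes part in any difference at equal hours was not tested beyond these shifts.

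Whether any strand changed at another rate over 8 to 11 h was asked through the interaction of hour and genotype. None passed in edgeR (0% of 246), with 38 at an unadjusted p under 0.05, and none in limma, with 36. miR-44-5p, named after its values were seen, came nearest. Its slope was -1.12 log2 units per hour in WT and -0.41 in lin-28(0), and the difference of the slopes had an adjusted p of 0.016 in edgeR.

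Whether the genotype difference was particular to these hours was asked against the windows before and after, in a fit of all 48 libraries. Against 4 to 7 h no strand passed in edgeR (0% of 246), with 12 at an unadjusted p under 0.05 (limma none and 13). Against 12 to 15 h none passed either (0% of 246), with 49 in edgeR and 43 in limma at an unadjusted p under 0.05. In that fit let-7-5p differed by 6.86 at 4 to 7 h, 8.04 at 8 to 11 h and 8.62 at 12 to 15 h, and the step from the earlier window was 1.18 (SE 0.68, adjusted p = 0.90 in edgeR). let-7-3p differed by 5.46, 8.45 and 10.69 in these windows. The contrast of let-7-3p was 2.99 (SE 4.34) against 4 to 7 h and -2.24 (SE 3.65) against 12 to 15 h, so changes of this size were not detectable for it. miR-229-3p differed by -2.10, -2.24 and -2.84 in the 3 windows, and miR-90-3p by -0.42, -0.61 and -0.67. miR-58a-3p, nearest to passing, differed by -0.05, -0.55 and 0.71, with an adjusted p of 0.049 in edgeR for the change between 8 to 11 h and 12 to 15 h. Without the WT library of 8 h that change passed for miR-58a-3p and for miR-36-3p.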

How the data were processed

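Small RNA was sequenced from whole larvae by the authors, who trimmed adapters, mapped reads to ce10 with Bowtie through QuasR (versions not given in the sources used here) and counted reads by the annotated start of each miRBase strand. The labels name more than 1 library kit and sequencing run per sample, and which runs entered the counts is not stated. The deposited raw counts per strand were used. The deposited log2 values, which are counts scaled to the mean library total plus 8, were recomputed from the counts within 0.0005 and used for nothing else. Reads mapping to several loci were kept, so near-identical strands share counts.

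Groups came from the sample titles, and the sampling hour served as replicate number. The main test was edgeR 4.0.16 (TMM, glmQLFit and glmQLFTest on genotype, R 4.3.3), with limma 3.58.1 for strand ratios and in place of edgeR as an alternative, and DESeq2 1.42.0 as a further alternative. Adjusted p-values are Benjamini-Hochberg values over all strands or precursors tested, at a threshold of 0.01. Of the tested strands, 10 had a mean under 10 counts in these 8 libraries, and 5 untested strands had 10 or more. No 2 libraries of the same genotype agreed within counting noise. Same-hour libraries of the 2 genotypes deviated together from their group means (correlations 0.53, 0.25, 0.21 and 0.42 for 8, 9, 10 and 11 h across 246 strands), so the rule used here took the hour as pairing the samples. For lin-28(0) at 9, 10 and 11 h, the WT library of 1 h earlier correlated more than that of the same hour (0.38, 0.38 and 0.51). The main fits stayed without the block, as designed, and the block was an alternative.

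Named strands were those past the threshold, both timing families (let-7 and lin-4), the partner strand of each called precursor, the 3 strands just outside the threshold, the 10 most abundant strands and, for each list, the most abundant member and that with the largest difference. The members and lists were chosen with earlier results of these data known. Alternatives were other scalings, count minimums and tools, the hour as a block or a covariate, shifted lin-28(0) hours, a threshold of 0.05 and leaving out each library. Mature miRNA sequences were not used here.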

Additional observations from a re-analysis of the deposited data

Results flagged for a closer look

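In 7 of 96 groups of 4 libraries (48 strands named or examined, in each genotype), 1 library stood apart from the other 3 by a gap that filled most of the group's range (past Dixon's 95% limit), where chance gives about 1 in 20. In lin-28(0) at 11 h, miR-795-5p stood at 771 CPM against 569 to 598 CPM at the other hours, miR-57-5p at 122646 against 97812 to 99279 CPM, and miR-8196a-3p at 14.2 against 20.6 to 21.1 CPM. In WT at 8 h, miR-229-5p stood at 4056 CPM against 5286 to 5372 CPM and miR-39-3p at 854 against 1294 to 1350 CPM. In lin-28(0) at 8 h, miR-39-3p was also low, at 746 CPM against 953 to 989 CPM, and miR-246-3p was high, at 7.66 CPM against 3.63 to 4.14 CPM. Since the libraries of a group are successive hours, the first and the last library can stand apart through change over time, which was not tested against other sources of the gap.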

How the results depend on the processing

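The rule used here took the hour as pairing the samples, and the block took away the call of miR-90-3p alone. For lin-28(0) at 9, 10 and 11 h, however, the WT library of 1 h earlier correlated more than that of the same hour. The number of strands that passed was 4 at equal hours, 2 with lin-28(0) taken 1 h earlier and 1 with it taken 2 h earlier, and 2 to 3 when each library was left out (2 without WT at 9 h or 11 h). No strand passed the interaction with hour or the step to 12 to 15 h, but 1 passed each at a threshold of 0.05, and leaving out each library gave 0 to 2 for the latter. For the let-7 guide and passenger, the mean difference within the hour (7.93 and 7.03) must equal that of the group means, so it is no separate check. The exact sign-flip test gave p of 0.125 for both. With the hour as a block, the fitted differences in edgeR were 7.99 for the guide and 8.61 for the passenger. Among the 48 single strands, 26 changed sign under at least 1 setting, none with a call at either. In 2 of them both values exceeded their SE: miR-48-3p went to -1.05 with lin-28(0) 2 h earlier and miR-73-3p to -0.19 with it 2 h later. The call of miR-90-3p held under 7 of 22 settings, of let-7-5p under 18, of let-7-3p under 20 and of miR-229-3p under 22. miR-8196a-3p passed in DESeq2 alone and miR-70-3p with a linear hour alone. The cause of these changes was not tested. With no separate cultures named, the spread between cultures is unknown, and WT let-7* rests on 17 counts in all.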
